A study of Mus musculus with 6 samples.

Results

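The 10 genes described here are the enzymes and regulators of fatty acid synthesis from acetyl-CoA: the transcription factors Srebf1 and Mlxipl, the enzymes Fasn, Acaca, Acacb, Acly, Acss2 and Me1, and the paired regulatory proteins Thrsp and Mid1ip1. They were chosen by name, with earlier results of these data known, and all 10 of 10 were measured among 22180 genes. Transcripts were measured in the livers of 6 male C57BL/6J mice, with 1 Affymetrix whole-transcript array per mouse. The 3 Con mice had the genotype Slug f/f. The 3 HKO mice, labelled SlugHKO, came from crosses of such mice with albumin-CreERT2 drivers, in which the albumin promoter directs an inducible Cre recombinase to hepatocytes, so that other liver cells keep the gene. Both groups began a high fat diet (60% of calories) at 8 weeks of age and ate it for 11 weeks, so every value below is from a fat-fed liver. The sources used here do not say whether Con mice carried Cre or how Cre was induced. Slug (gene symbol Snai2) belongs to the Snail family of zinc finger transcription factors.

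The liver makes fatty acids from surplus carbohydrate. Citrate leaves the mitochondrion and is split to acetyl-CoA, a carboxylase turns acetyl-CoA into malonyl-CoA, and fatty acid synthase joins the units into palmitate at the cost of NADPH. Insulin acts on this pathway largely through SREBP-1c, a product of Srebf1, and glucose through ChREBP, the product of Mlxipl; both factors bind the promoters of many of the enzymes.

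The arrays were closely alike, with correlations over genes of 0.989 to 0.992 within groups and 0.986 to 0.988 across groups. Snai2 itself was lower in all 3 HKO arrays, at 7.61 ± 0.19 (SD, n = 3) in Con and 5.18 ± 0.54 in HKO on the log2 scale of the arrays (limma adjusted p = 0.0145), and its adjusted p lay between 0.0621 and 0.0927 when Con replicate 1, Con replicate 2 or HKO replicate 2 was left out. The 8 hepatocyte markers, among them Alb and Ttr, differed between groups by -0.03 to 0.15. Of 8 macrophage markers 7 had lower HKO means, as had 51.8% of all genes. Mean log2 levels of the list per array were 6.14 to 6.48 in Con and 5.93 to 6.07 in HKO. The exception was Clec4f (log2 change 0.20), with every HKO array above every Con array. Of 8 stellate cell markers 6 had lower HKO means (6.79 to 6.99 and 6.39 to 6.59). Changes were -1.32 for Col1a1, -0.74 for Acta2, -0.73 for Pdgfrb and -0.34 for Dcn. They were small for Hgf (-0.08), Reln (-0.005), Lrat (0.03) and Des (0.05). The integrin Itgax alone among these markers passed adjusted p 0.05 (0.028). Of 6 endothelial markers 4 had lower HKO means (7.66 to 7.74 and 7.51 to 7.56), and lymphocyte markers overlapped between groups (4.33 to 4.69 and 4.27 to 4.51). For the macrophage, stellate and endothelial lists, their part in the results below was not tested. Adipocytes also make fatty acids, and 3 genes characteristic of them were dim in both groups: Adipoq averaged 2.96 in Con and 3.23 in HKO, Lep 1.76 and 1.96, and Plin1 3.18 and 3.17, all below the median over genes, which rounded to 3.95 on each array. The 6 adipocyte markers measured had mean levels per array of 3.87 to 3.97 in Con and 3.77 to 4.15 in HKO, with 2 lower and 4 higher HKO means. Every HKO array was above every Con array for Adipoq and Lep, and Pparg (6.93 and 6.73) and Lipe (4.83 and 4.92) lay above the median over genes, with Retn near it (3.85 and 3.996). In whole liver, a lower share of cells that express a gene and less RNA per cell cannot be told apart.

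Array values were lower in HKO livers for Fasn, Srebf1, Me1, Acly, Acaca and Thrsp, with every HKO array below every Con array for each of these 6 genes, and slightly higher for Mlxipl, with every HKO array above. Over all genes, 10.1% had all HKO arrays below all Con arrays and 8.05% had all above. The same 6 genes were lower at an unadjusted p under 0.05, as were 6.56% of all genes, and Mlxipl was higher, as were 5.31%. After Benjamini-Hochberg adjustment over all genes, 0 of the 10 passed the threshold of 0.05 in limma, where 0.203% of all genes did. With a variance that follows the expression level (limma's trend option) 3 of the 10 passed, Fasn (adjusted p = 0.00741), Acaca (0.0359) and Me1 (0.0443), against 0.969% of all genes. Of the 10 genes 8 had a lower HKO mean, as had 51.8% of all genes, and the median log2 change was -0.38, against -0.01 over all genes. Because the 10 genes were chosen with earlier results of these data known, the shares over all genes give no test of the set. Thrsp missed an unadjusted p of 0.05 without Con replicate 1 (0.0586) or HKO replicate 1 (0.0678).

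**Figure D1:**
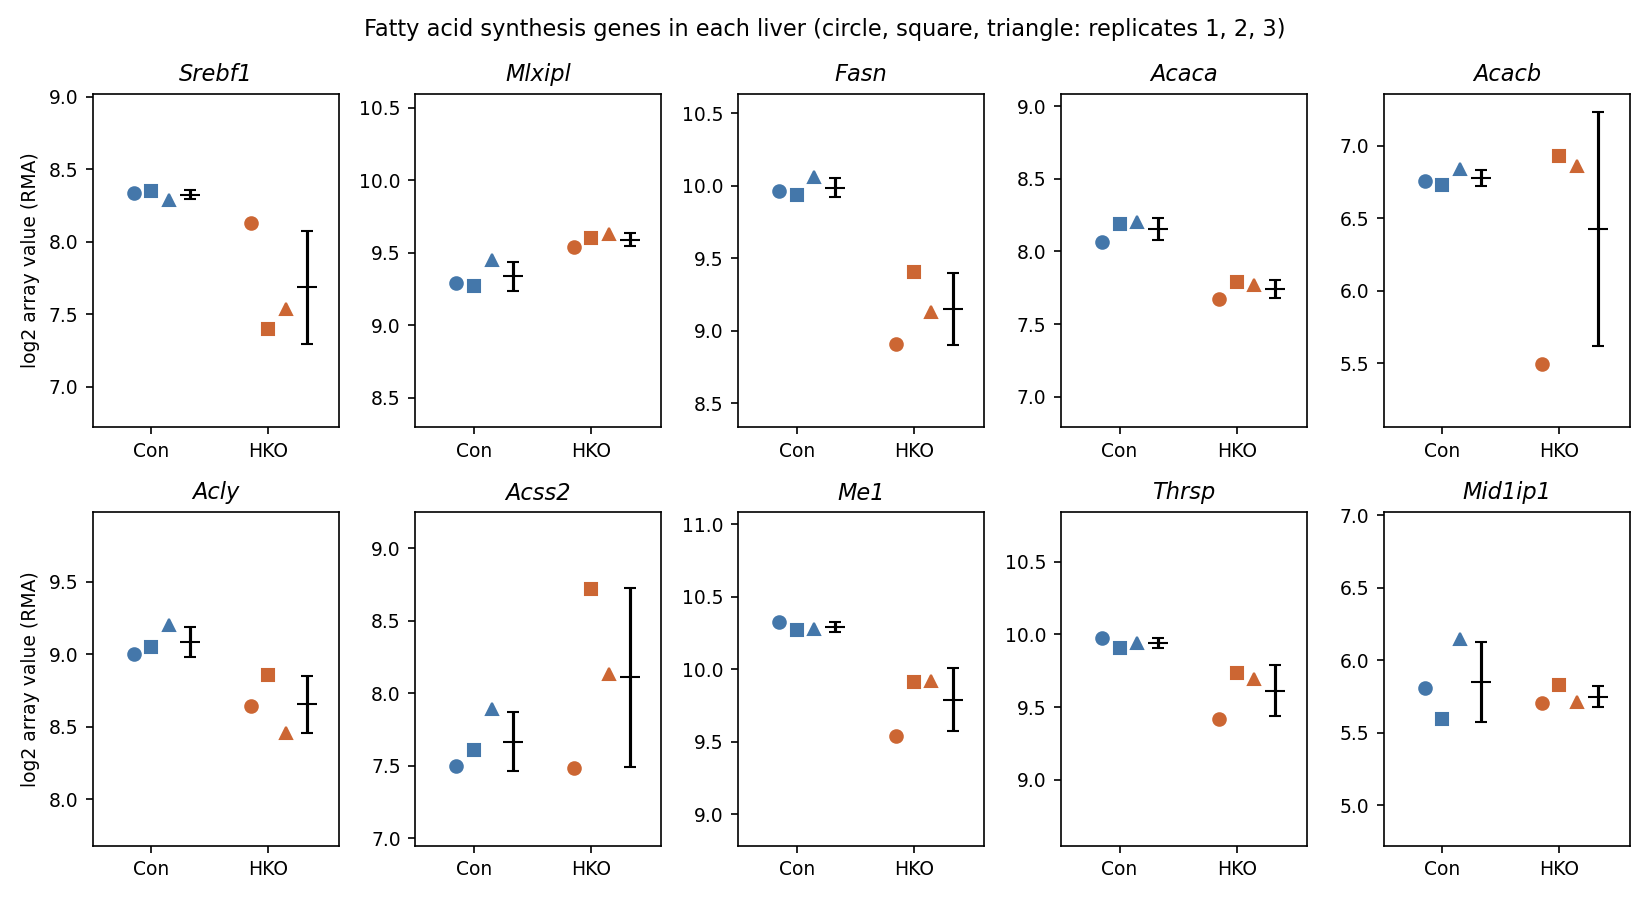
Log2 array values (vertical axes, all spanning the same range of log2 units) of the 10 genes in the 3 Con (blue) and 3 HKO (orange) livers; circles, squares and triangles are replicates 1, 2 and 3, and the black bar is the mean with its SD. Srebf1, Fasn, Acaca, Acly, Me1 and Thrsp have all HKO points below all Con points, Mlxipl has them above, and Acacb, Acss2 and Mid1ip1 overlap.

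Srebf1 encodes SREBP-1, a factor held in the endoplasmic reticulum membrane until it is cut and moves to the nucleus. Its values were 8.34, 8.35 and 8.29 in Con replicates 1 to 3 and 8.13, 7.40 and 7.54 in HKO replicates 1 to 3. The Con arrays lay close together, while the HKO arrays were split, with replicate 1 just under the Con arrays and the other two well below. The log2 change was -0.64 ± 0.18 (SE; 95% interval -1.05 to -0.22), or 1.56-fold lower (unadjusted p = 0.00771, adjusted p = 0.254). Without HKO replicate 1 it was -0.86 (adjusted p = 0.0697), and without HKO replicate 2 it was -0.49 (adjusted p = 0.424). The RefSeq start sites used here number 3 for Srebf1 and 2 for Mlxipl, and which of their transcripts the 1 probe set of each gene reads is not known here.

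Mlxipl, whose product ChREBP responds to glucose, stood on the other side. Con arrays read 9.29, 9.27 and 9.45 and HKO arrays 9.54, 9.60 and 9.63. The groups did not overlap, but the gap between the highest Con and the lowest HKO array was only 0.09. The log2 change was 0.25 ± 0.10 (SE; 95% interval 0.02 to 0.48), or 1.19-fold higher (unadjusted p = 0.0357, adjusted p = 0.387), and the unadjusted p lay between 0.0276 and 0.107 when 1 array was left out. Taken within each array, the log2 difference of Srebf1 from Mlxipl stood at -0.40, -1.19 and -1.08 from the Con mean in HKO replicates 1 to 3, with a mean difference between the groups of -0.89. The exact two-sided permutation p was 0.1, the lowest possible with 3 arrays a group, or 0.3 adjusted over the 3 pairs of genes so compared. Both genes already separated the groups, in opposite directions, so the unadjusted permutation p could only be 0.1 and adds nothing to those separations.

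Srebf1, Fasn and Thrsp had lower HKO means and Mlxipl a higher one, and whether the factors acted on these genes here was not tested. The stretches of 140 bases before annotated start sites are shown for both factors and for the target genes Fasn and Thrsp. They are from RefSeq, build GRCm38.p6, written 5′ to 3′ on the gene's strand. Capitals mark matches on either strand to 5 motifs: CACCTG, the E-box core that Slug binds (CAGGTG on the other strand); CACGTG, the E-box of USF and ChREBP; TCACNCCAC, a form of the sterol element that SREBP binds; CCAAT, the box of NF-Y; and GGGCGG, the GC box of Sp1. A run of capitals can hold overlapping matches, as in Fasn, where a CCAAT and its reverse share bases. Srebf1 has 3 annotated start sites among those used here, of which the second in the order of the gene is shown (chr11:60220628-60220767, minus strand). Over 250 bases the second site had 0 CCAAT and 2 GGGCGG matches. The third had 1 and 2, and the first had 1 and 0. At the third site, which is not shown, the CCAAT match lay 30 to 26 bases and the nearest GGGCGG match 6 to 1 bases before the start. Which of the 3 sites gives the SREBP-1c transcript in these livers was not tested, and showing the second does not mark it as that site. Mlxipl has 2 sites, given as its downstream site (chr5:135106751-135106890, plus strand) and its upstream site (chr5:135089750-135089889, plus strand). Fasn is at chr11:120824548-120824687 and Thrsp at chr7:97417551-97417690, both on the minus strand.
Srebf1, second site: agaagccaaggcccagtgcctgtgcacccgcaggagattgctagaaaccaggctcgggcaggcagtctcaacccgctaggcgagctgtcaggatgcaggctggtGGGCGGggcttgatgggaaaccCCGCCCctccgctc
Mlxipl, downstream site: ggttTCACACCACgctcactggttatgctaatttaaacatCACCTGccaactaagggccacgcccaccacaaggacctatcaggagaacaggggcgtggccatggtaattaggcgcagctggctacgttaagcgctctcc
Mlxipl, upstream site: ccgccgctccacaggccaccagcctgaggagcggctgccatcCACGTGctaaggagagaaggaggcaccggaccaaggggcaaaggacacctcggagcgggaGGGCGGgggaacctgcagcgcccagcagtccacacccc
Fasn: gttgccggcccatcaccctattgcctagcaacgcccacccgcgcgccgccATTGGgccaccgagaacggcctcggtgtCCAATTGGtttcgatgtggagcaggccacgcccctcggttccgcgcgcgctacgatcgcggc
Thrsp: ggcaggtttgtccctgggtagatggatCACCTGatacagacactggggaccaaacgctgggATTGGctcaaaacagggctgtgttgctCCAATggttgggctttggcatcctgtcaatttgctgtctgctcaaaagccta

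Over the 250 bases before each of the 14 start sites listed for the 10 genes, CACCTG was found at 3 sites (21.4%), namely the downstream Mlxipl site, the second Me1 site and Thrsp, against 17.2% of 32851 windows of all genes. CCAAT was found at 8 of the 14 (57.1%), against 33.8% of all windows, and GGGCGG at 7 (50%), against 32.7%. CACGTG and TCACNCCAC were each found at 1 site, both of Mlxipl, against 6.02% and 1.05% of all windows. Of the 3 genes with CACCTG, Mlxipl was higher and Me1 and Thrsp were lower in HKO. These matches describe the letters in the windows, and start sites of 1 gene are not independent of each other. The windows of Acaca, Acacb, Fasn and Srebf1 lie inside the annotated genes, as do the downstream Mlxipl window and the second Me1 window. For Acaca and Acacb the last 140 bases begin at chr11:84195298 and chr5:114165378, while the genes begin at chr11:84129635 and chr5:114146321. On the minus strand, the Fasn stretch shown ends at chr11:120824687 while the gene runs to chr11:120825166. The Srebf1 stretch shown ends at chr11:60220767 while that gene runs to chr11:60224186. The 14 sites thus need not include the first start of each gene.

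Fasn, fatty acid synthase, builds palmitate and had the lowest p of the 10 genes. Con livers had 9.96, 9.94 and 10.06 and HKO livers 8.91, 9.41 and 9.13. All HKO arrays lay at least 0.53 below the lowest Con array, the widest gap of the 10 genes. The log2 change was -0.84 ± 0.14 (SE; 95% interval -1.16 to -0.52), or 1.79-fold lower (unadjusted p = 0.000268, adjusted p = 0.0763), which placed it as number 78 among all genes in order of p. The change ran from -0.97 to -0.72 when 1 array was left out, with adjusted p from 0.0643 to 0.226. When only genes with a mean above the median over genes were tested, which all 10 of these genes passed, Fasn had an adjusted p of 0.0348 and was called alone among the 10, against 1.26% of the 11041 genes then tested; with genes above that median in at least 3 arrays its adjusted p was 0.0359, against 1.18% called.

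Acaca and Acacb encode acetyl-CoA carboxylases 1 and 2, which make malonyl-CoA; the first serves synthesis in the cytosol, and the second lies at the mitochondrial surface, where malonyl-CoA restrains fatty acid uptake for oxidation. Acaca was at 8.07, 8.19 and 8.20 in Con and 7.67, 7.79 and 7.77 in HKO. Its HKO arrays agreed closely (SD 0.06, n = 3), and its log2 change of -0.41 ± 0.10 (SE; 95% interval -0.64 to -0.18; adjusted p = 0.184) ranged only from -0.45 to -0.38 when 1 array was left out. Acacb was at 6.76, 6.73 and 6.84 in Con and 5.49, 6.93 and 6.86 in HKO. HKO replicate 1 was far below every other array, while HKO replicates 2 and 3 were slightly above all Con arrays. Its mean log2 change of -0.35 ± 0.34 (SE; 95% interval -1.13 to 0.43; adjusted p = 0.744) therefore rested on 1 mouse and was 0.12 without it (adjusted p = 0.717). The within-array difference of Acaca from Acacb stood at 0.80 from the Con mean in HKO replicate 1 and at -0.52 and -0.47 in replicates 2 and 3 (mean difference -0.06, exact two-sided permutation p = 1); the mean was 0.17 without HKO replicate 2, 0.14 without replicate 3 and -0.49 without replicate 1.

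Acly and Acss2 supply cytosolic acetyl-CoA, the first by splitting citrate and the second by activating acetate. Acly read 9.00, 9.05 and 9.20 in Con and 8.65, 8.86 and 8.46 in HKO, a log2 change of -0.43 ± 0.13 (SE; 95% interval -0.73 to -0.14; adjusted p = 0.268). Here HKO replicate 3 was the lowest array, and the groups were 0.15 apart at their nearest points. Acss2 was at 7.49, 7.61 and 7.89 in Con and at 7.48, 8.72 and 8.13 in HKO. HKO replicate 2 was high, replicate 3 was moderately high and replicate 1 was level with the lowest Con array, so the groups overlapped. Its log2 change was 0.45 ± 0.28 (SE; 95% interval -0.19 to 1.08; adjusted p = 0.587). It was 0.14 without HKO replicate 2 and 0.76 without HKO replicate 1 (unadjusted p = 0.00742, adjusted p = 0.269).

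Me1, cytosolic malic enzyme, provides NADPH for the synthase. Its levels in Con were 10.33, 10.27 and 10.27, within 0.06 of each other, and those in HKO were 9.54, 9.91 and 9.92. Every HKO array was below the Con arrays, with replicate 1 the lowest. The log2 change was -0.50 ± 0.13 (SE; 95% interval -0.79 to -0.21), or 1.41-fold lower (unadjusted p = 0.00402, adjusted p = 0.205).

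Thrsp (Spot 14) and Mid1ip1 are related small proteins that bind each other and affect the assembly and activity of acetyl-CoA carboxylase. Thrsp was at 9.97, 9.91 and 9.94 in Con and 9.41, 9.74 and 9.69 in HKO, again with HKO replicate 1 the lowest, and its log2 change was -0.33 ± 0.12 (SE; 95% interval -0.59 to -0.06; adjusted p = 0.333). Mid1ip1 was at 5.81, 5.60 and 6.14 in Con and 5.70, 5.83 and 5.71 in HKO. Its HKO arrays all lay inside the Con range, and the change of -0.10 ± 0.15 (SE; 95% interval -0.44 to 0.23; adjusted p = 0.835) did not keep its sign: it was 0.044 without Con replicate 3 and 0.10 when its 3 probe sets were averaged. The 2 dimmer Mid1ip1 probe sets had changes of 0.07 and 0.33, the second at a mean level below the median over genes in both groups. Each of the other 9 genes had 1 probe set. The within-array difference of Thrsp from Mid1ip1 lay -0.38, -0.18 and -0.11 from the Con mean in HKO and between -0.29 and 0.22 from it in Con, so the groups overlapped (mean difference -0.22, exact two-sided permutation p = 0.3, adjusted 0.45). The mean difference was -0.12 without Con replicate 2, -0.15 without HKO replicate 1, -0.37 without Con replicate 3 and -0.42 with averaged probe sets.

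**Figure D2:**
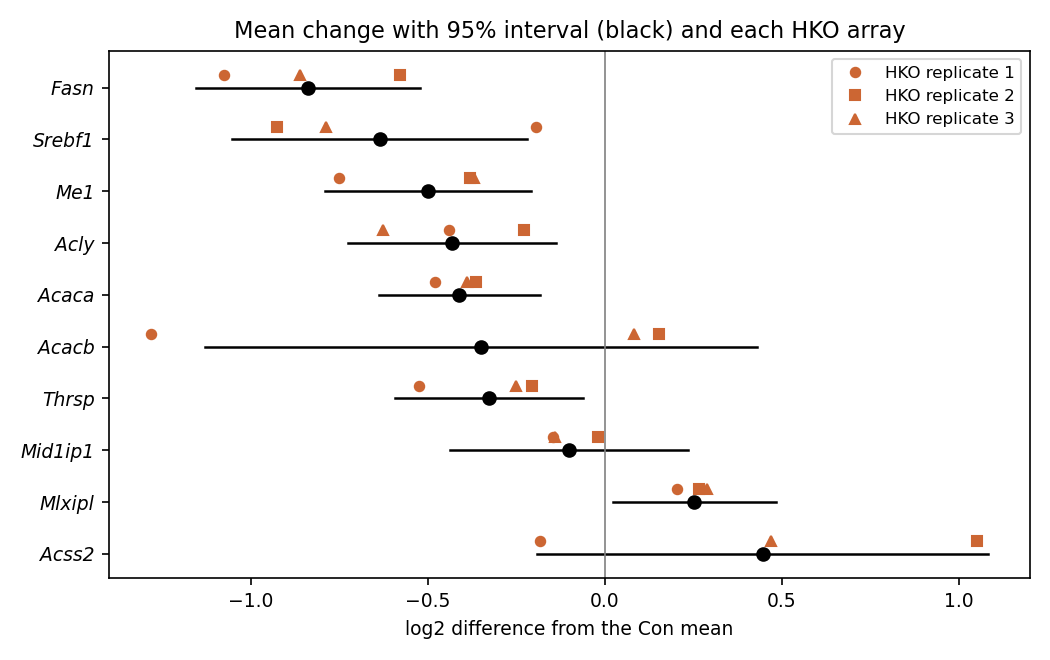
Log2 difference from the Con mean (horizontal axis) for each gene: the black point and line are the mean change of 3 HKO arrays and its limma 95% interval, and the orange marks above them are the HKO arrays. The intervals of Fasn, Srebf1, Me1, Acly, Acaca and Thrsp lie below 0, that of Mlxipl lies above 0, and those of Acacb, Mid1ip1 and Acss2 span 0.

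HKO replicate 1 was the lowest of the 3 HKO arrays for 8 of the 10 genes, the exceptions being Srebf1 and Acly. How often this array was the lowest over all genes was not counted. HKO replicate 1 stood at -1.08 from the Con mean for Fasn, -0.48 for Acaca, -0.75 for Me1, -0.53 for Thrsp and -1.28 for Acacb. It was also below the other HKO arrays for Mlxipl (0.20), Acss2 (-0.18) and Mid1ip1 (-0.15). For Mlxipl it lay above all Con arrays, and for Mid1ip1 it was close to HKO replicate 3 (5.704 and 5.709). It was the HKO array with the highest Srebf1, at -0.20 from the Con mean, whereas replicate 2 had the lowest Srebf1, at -0.93, together with the highest Acss2, at 1.05. The order of the HKO arrays in Srebf1 was thus the reverse of their order in Fasn. The median of the 10 genes stood at -0.46, -0.22 and -0.31 from the Con mean in HKO replicates 1 to 3, while the Con arrays stayed between -0.04 and 0.07. Leaving out 1 array moved the median change between -0.46 and -0.30.

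**Figure D3:**
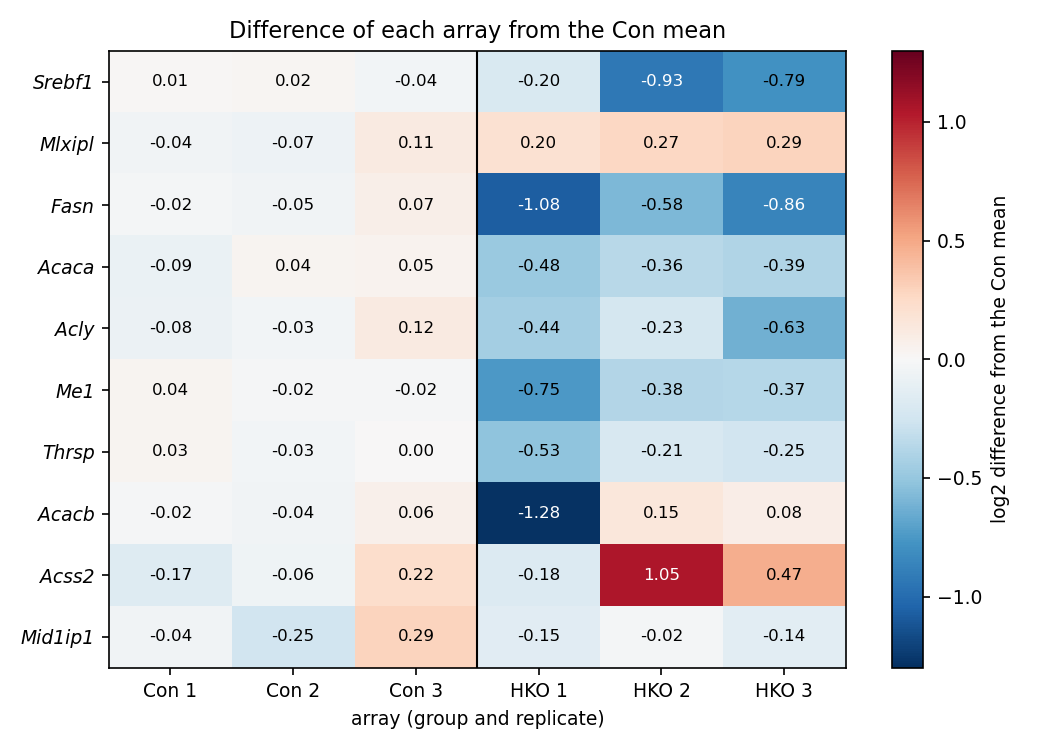
Log2 difference of each array (columns) from the Con mean for the 10 genes (rows); blue is lower, red is higher, and each cell prints its value. HKO replicate 1 has the lowest Fasn (-1.08) and Acacb (-1.28) but the highest Srebf1 of the HKO arrays (-0.20), and HKO replicate 2 has the highest Acss2 (1.05).

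The rest of the pathway was read from 8 lists of related genes, in which 0 genes passed adjusted p 0.05 over all genes in limma. Each count at an unadjusted p under 0.05 below stands against 6.56% of all genes lower and 5.31% higher; 1 gene of 10 or so is near those shares. Other genes known as SREBP-1 targets had lower HKO means: of 4 measured of 6 listed, 3 were lower at an unadjusted p under 0.05, and the median change was -0.48, or -0.32 when the filter on the mean level left out Pnpla3. Gpam, which starts glycerolipid synthesis, was at -0.64 ± 0.10 (SE; adjusted p = 0.0714), with Con arrays at 9.86, 9.94 and 10.04 and HKO arrays at 9.25, 9.40 and 9.28. Pnpla3, a lipid droplet protein with lipase activity, averaged 4.27 in Con and 3.50 in HKO, the latter below the median over genes. Among 10 measured elongases and desaturases, which lengthen and desaturate palmitate, 4 were lower and 0 higher at an unadjusted p under 0.05 (median -0.17, or -0.26 without HKO replicate 2). The lowest p were those of Hsd17b12 at -0.44 ± 0.10 (adjusted p = 0.167) and Elovl5 at -0.41 ± 0.11 (adjusted p = 0.214), while the largest change was that of Elovl6, at -0.51 ± 0.15 (adjusted p = 0.270), named after its values were seen.

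Genes that supply NADPH and citrate did not lie on 1 side. The pentose phosphate enzymes Pgd (-0.58 ± 0.11, adjusted p = 0.113) and Taldo1 (-0.39 ± 0.12, adjusted p = 0.278) were lower in all HKO arrays. Pgls, the other pentose phosphate enzyme measured, was higher in all HKO arrays (0.19 ± 0.10, limma adjusted p = 0.520). The citrate carrier Slc25a1, named like Pgls after its values were seen, was at 0.00050 ± 0.11 (SE; limma adjusted p = 0.999). The list had 2 of 5 measured genes lower and 0 higher at an unadjusted p under 0.05, with a median of -0.09, which was -0.03 without HKO replicate 3 and -0.13 without HKO replicate 1. Sources of mitochondrial acetyl-CoA and citrate had 4 of 10 lower and 1 higher (median -0.23). Dlat, a subunit of pyruvate dehydrogenase, was at -0.31 ± 0.11 (adjusted p = 0.340), and Pdk2, a kinase that inhibits that complex, was at 0.48 ± 0.12 (adjusted p = 0.192), with every HKO array above every Con array. Of the other kinases of that complex, named after their values were seen, Pdk4 was at -0.55 ± 0.22 (adjusted p = 0.395) with overlapping groups and Pdk1 at 0.02 ± 0.10 (adjusted p = 0.966).

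The list of SREBP processing and LXR control genes, which also holds other regulators, went both ways, with 1 of 12 measured lower (Insig2) and 4 higher (Scap, Srebf2, Rxra and Ppargc1b) at an unadjusted p under 0.05. Its median of 0.07 became 0.0071 when Con replicate 1 was left out, 0.023 when HKO replicate 1 was, and 0.12 when HKO replicate 3 was. Scap alone of the 4 higher genes acts in SREBP processing. Srebf2, which encodes SREBP-2, was at 0.53 ± 0.17 (adjusted p = 0.290), Rxra, the partner receptor of LXR, at 0.27 ± 0.10 (0.341), and Ppargc1b, a coactivator, at 0.33 ± 0.13 (0.370). Insig2, a membrane protein that retains SREBP in the endoplasmic reticulum, was at 9.15, 9.09 and 8.88 in Con and 7.92, 8.41 and 8.12 in HKO (-0.89 ± 0.15, adjusted p = 0.0763). Scap, the escort that carries SREBP to be cut, was at 7.06, 7.03 and 7.06 in Con and 7.50, 7.55 and 7.53 in HKO (0.48 ± 0.09, adjusted p = 0.113). Insig2 was thus lower and Scap higher in all 3 HKO livers, in which Srebf1 was lower, and a link between these changes was not tested. Other SREBP processing genes were named after their values were seen. Insig1 was at -0.10 ± 0.15 (SE; limma adjusted p = 0.842) and Mbtps2 at 0.02 ± 0.11 (0.957), both with overlapping groups. Mbtps1 was at -0.16 ± 0.12 (0.654), with every HKO array below every Con array.

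Partners and targets of ChREBP had 1 of 10 lower and 0 higher at an unadjusted p under 0.05, with a median of -0.15 (-0.27 without HKO replicate 1). Mlx, the partner with which ChREBP binds DNA, was at -0.25 ± 0.11 (adjusted p = 0.419), opposite in sign to Mlxipl, and Gpd1, which makes glycerol 3-phosphate, was at -0.23 ± 0.11 (adjusted p = 0.455). Pklr, liver pyruvate kinase and a known ChREBP target, named after its values were seen, had overlapping groups and a change of -0.07 ± 0.13 (adjusted p = 0.869). Genes of carboxylase control and malonyl-CoA use had 1 of 11 lower and 1 higher (median -0.07, from -0.12 without Con replicate 2 to -0.0026 without Con replicate 1, and -0.04 without HKO replicate 3): the AMP-activated kinase subunits Prkag1 (-0.37 ± 0.11, adjusted p = 0.278) and Prkag2 (0.27 ± 0.11, adjusted p = 0.381). The separate mitochondrial pathway of fatty acid synthesis had 0 of 6 at an unadjusted p under 0.05 in limma in either direction, with changes between -0.10 and 0.03 and a median of -0.08 (-0.05 without Con replicate 1, -0.03 without Con replicate 3 and -0.05 after a second quantile normalization); Acsf3, which makes malonyl-CoA there, and the malonyl transferase Mcat were both at -0.10.

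**Figure D4:**
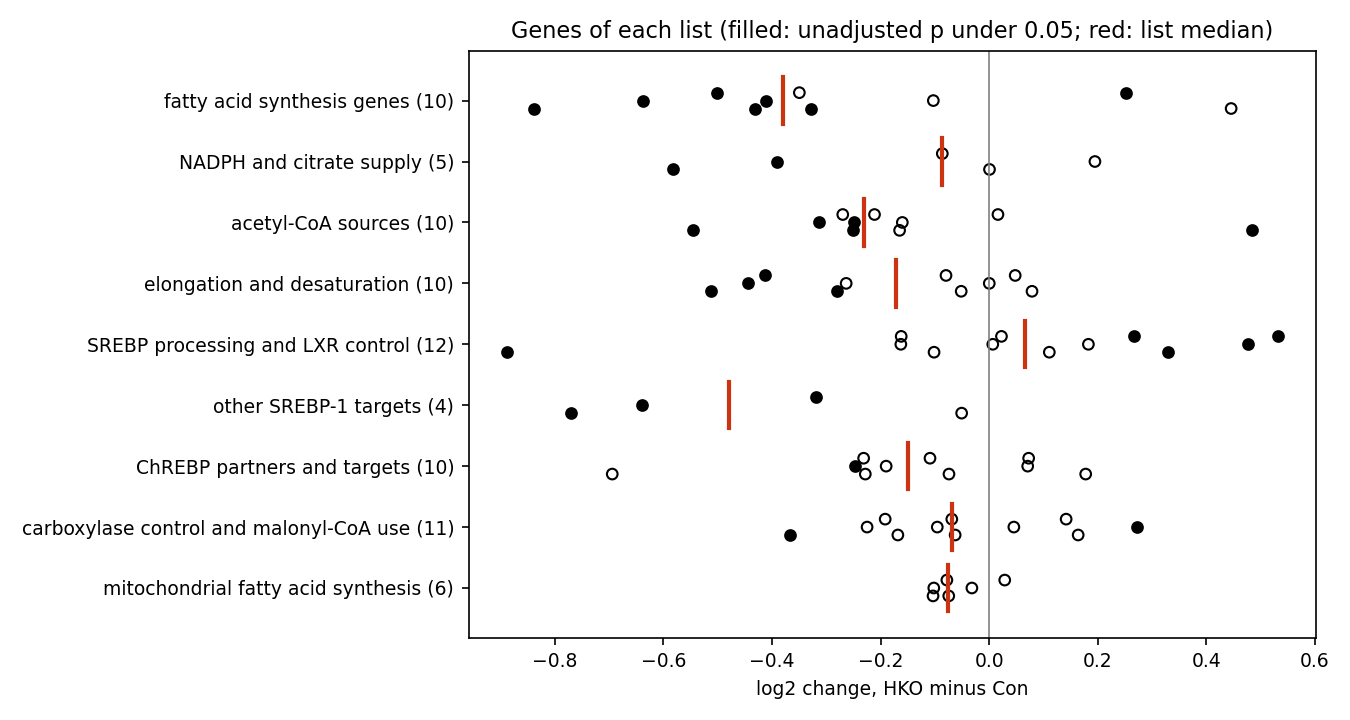
Log2 change between HKO and Con (horizontal axis) of each measured gene in the 10-gene set and the 8 related lists, with the number measured in brackets; filled points have an unadjusted p under 0.05 and red bars are list medians. The 10-gene set (median -0.38) and the other SREBP-1 targets (-0.48) lie furthest to the left, and the mitochondrial pathway stays between -0.10 and 0.03.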

How the data were processed

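The deposited log2 values, 1 for each probe set on each array, come from RMA under R 3.3.0, as the submitters' processing notes list. RMA corrects background, equalises the arrays' distributions and summarises probes, so differences are relative to the whole array and small for dim genes. Per the labels' protocols, labelled cDNA was prepared from 400 ng of RNA. The sources used here name no probe filter and no genome build for the array. Arrays have no read depth, so their number limits precision.

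A platform annotation gave 1 gene to 23521 of 41345 probe sets. Each of 22180 genes was read from the brightest of its probe sets (highest mean of 6 arrays). HKO was compared with Con in limma 3.58.1 (R 4.3.3; lmFit and eBayes on group alone), with two-sided p adjusted over all genes by Benjamini-Hochberg. Errors of changes are limma's moderated SE. The genes and lists were chosen with earlier results of these data known, so no p is given over a list. Named genes are the 10, Snai2 and the 2 with the lowest p per list, or those stated. In 10 simulations over 22180 genes, 16% of genes changed by 0.5 and 73% of those changed by 1 log2 unit were recovered for HKO against Con, and 3.98% of calls were false. The simulations shuffled spreads between genes of all levels, so these rates are not specific to genes as bright as the 10. Promoter windows are from RefSeq (GRCm38.p6). Alternatives were normalization, centring, filters, probe sets, variance models, array weights, a replicate block and leaving out each array.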

Additional observations from a re-analysis of the deposited data

How the results depend on the processing

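Of 160 values of the 10 genes under alternatives, 152 kept their sign and their side of adjusted p 0.05, 5 newly passed it and 3 changed sign. The 10-gene count past adjusted p 0.05 was 0 in the main comparison and 1 (Fasn) with either filter on low values (1.26% and 1.18% of genes tested), 3 with a variance trend (Fasn, Acaca and Me1), and 0 without any 1 array. Acacb changed sign without HKO replicate 1 and ran from -0.60 to 0.12 without 1 array; Mid1ip1 changed sign with averaged probe sets (0.10) or without Con replicate 3, with a range of -0.23 to 0.044 without 1 array. Over all genes the count of 45 (25 lower in HKO) became 139 (79 lower) and 132 (74 lower) with the filters on the mean and on 3 arrays, 215 (115 lower) with a variance trend, and 4 to 32 (4 to 16 lower) without 1 array. The replicate number as a block gave 3 (3 lower) and 0 of the 10 genes, with Fasn at adjusted p = 0.137 and Snai2 at 0.0540; same-numbered arrays deviated together only weakly (r = 0.03, 0.02 and 0.02, each the best match of its array), so they are not treated as paired. The median of the acetyl-CoA source list was -0.20 with averaged probe sets and ran from -0.23 to -0.20 without 1 array, that of the ChREBP list from -0.27 to -0.14, and that of the carboxylase control list from -0.12 to -0.00262. The Acaca minus Acacb difference ran from -0.49 to 0.17 (0.17 without HKO replicate 2 and 0.14 without HKO replicate 3). The filters tested fewer genes; the cause of the other shifts was not tested. With 3 arrays a group, changes of about 0.5 log2 units were seldom recovered in simulations that shuffled spreads between all genes. Recovery at the levels of the 10 genes was not tested, so values that missed the threshold are not shown to be equal.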
